A study of Mus musculus with 3 samples.

Results

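The genes described here encode the subunits of the mitochondrial respiratory chain and ATP synthase. They were chosen by symbol from a table of 44788 gene rows. Nuclear rows were those named Ndufa, Ndufb, Ndufc, Ndufs or Ndufv with a number, Uqcr, Cox4 to Cox8, Atp5, or Sdha to Sdhd, with rows ending in -ps left out. These rules gave 84 nuclear rows, and the 13 protein-coding genes of the mitochondrial genome brought the total to 97. By name, 37 nuclear rows belonged to complex I, 4 to complex II, 8 to complex III, 18 to complex IV and 17 to complex V. The mitochondrial rows comprised 7 genes of complex I, 1 of complex III, 3 of complex IV and 2 of complex V.

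The names are older than some of the assignments. Ndufa4 is known today as a subunit of complex IV, Cox7a2l as a factor that joins complexes III and IV, and Atp5sl as an assembly factor of complex I. Each was kept with the complex in its symbol. Cyc1, the cytochrome c1 subunit of complex III, has a symbol outside these patterns and is given with the other genes of the pathway.

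The libraries came from T lymphocytes of the spleen of female BALB/c mice aged 6 to 8 weeks, separated with beads against CD90.2, a T cell surface protein. They were held in RPMI with 2% serum (fetal bovine) and exposed for 10 h to LZ-8, a fungal immunomodulatory protein. All 3 libraries carried this one label and are called replicates 1, 2 and 3. No untreated library was analysed here, so every value below is a level in treated cells or a difference between replicates, and none is an effect of LZ-8. Separate mice or cultures are not named for the replicates, so the spread between them may be technical.

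The respiratory chain passes electrons from NADH through complex I, and from succinate through complex II, by way of coenzyme Q to complex III, cytochrome c and complex IV, where oxygen is reduced. Complexes I, III and IV pump protons across the inner membrane, and ATP synthase, complex V, uses the gradient to make ATP. Complex II is encoded by nuclear genes alone, while the other complexes combine nuclear subunits with subunits encoded by the mitochondrial genome. Activated T lymphocytes are known to expand their mitochondria as they leave quiescence, and many promoters of nuclear subunits are known targets of NRF1 and of the ETS-family factor GABP.

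Promoters were read as the 300 bases from 250 before to 50 after the start of the gene (RefSeq, GRCm38.p6), and 69 of the 84 nuclear rows had one. They were searched on both strands for the binding motif of NRF1, GCGCA followed by any base and GCGC, for CCGGAAG, an ETS motif, and for TATAAA. The 250 bases before the start are shown for 3 genes, 2 with matches and 1 tissue-restricted isoform without, with motif matches in capitals. Sdha, the flavoprotein of complex II, lies on the minus strand with its upstream bases at chr13:74350241-74350490 and held 3 NRF1 matches. Cox6a1, the widely expressed isoform of a complex IV subunit, had its upstream bases at chr5:115348959-115349208 on the minus strand, with 2 NRF1 matches and 1 ETS match. Cox8b, a complex IV isoform of heart and skeletal muscle, had its upstream bases at chr7:140900447-140900696 on the minus strand and held neither motif. The promoter of Atp5b, the most abundant nuclear gene described below, held 0 NRF1 and 0 ETS matches.
Sdha: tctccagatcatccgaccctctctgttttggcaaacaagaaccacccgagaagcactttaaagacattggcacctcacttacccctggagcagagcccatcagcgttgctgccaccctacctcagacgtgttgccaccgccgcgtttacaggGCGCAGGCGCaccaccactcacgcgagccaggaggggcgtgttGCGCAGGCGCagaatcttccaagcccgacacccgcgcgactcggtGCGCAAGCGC
Cox6a1: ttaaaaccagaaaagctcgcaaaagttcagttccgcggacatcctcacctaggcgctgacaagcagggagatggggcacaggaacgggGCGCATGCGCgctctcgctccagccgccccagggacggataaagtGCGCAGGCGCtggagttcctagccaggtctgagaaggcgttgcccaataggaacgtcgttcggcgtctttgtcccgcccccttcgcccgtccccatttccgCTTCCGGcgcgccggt
Cox8b: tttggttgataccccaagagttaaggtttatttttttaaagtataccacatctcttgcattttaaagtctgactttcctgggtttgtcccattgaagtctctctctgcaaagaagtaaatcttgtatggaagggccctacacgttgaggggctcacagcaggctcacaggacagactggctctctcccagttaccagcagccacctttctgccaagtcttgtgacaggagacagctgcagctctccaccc

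Of the 69 promoters, 16 (23.2%) held an NRF1 match, 15 (21.7%) an ETS match, 4 both, and 27 (39.1%) at least 1 of them. Among all 32851 mouse promoters of this length, 4.60% held the NRF1 motif and 8.86% the ETS motif. Among 8311 promoters of other protein-coding genes averaging 10 CPM or more (CPM is a gene's count as a rate of the scaled library size), the shares were 11.8% and 21.4%. Of the 69 subunit promoters, 63 were of genes averaging 10 CPM or more, and 15 of these (23.8%) held each motif. Each subunit gene gave 1 promoter, while the other genes gave every promoter listed for them. The subunit promoters thus held the NRF1 motif more often than those of other genes at this level, and the ETS motif about as often. This is a count of letters without a test, since promoters are not replicates. A TATAAA match was found in 7 of the 69 (10.1%), and in 5 of the 63 from genes at 10 CPM or more (7.94%). The shares were 13.6% of all promoters and 6.49% of those of the other genes at 10 CPM or more. No subunit promoter had an NRF1 and an ETS match that overlapped. The median number of CpG dinucleotides was 19 in the subunit promoters, 7 in all promoters and 22 in those of the other genes at 10 CPM or more. The 4 promoters of subunit genes that lay under 1 CPM in every library held neither NRF1 nor ETS motif and had between 2 and 10 CpG. Over the full 300 bases, of which the sequences above show 250, Cox8b had the fewest of these with 2, against 25 for Sdha and 32 for Cox6a1.

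The libraries held 13239482 to 15683820 counts. All 16 T cell markers were at 10 CPM or more, with a summed level of 5260 to 5497 CPM over the libraries. B cell markers summed to 81.7 to 92.7 CPM, most of it Ighm at a mean of 72.4 CPM. Neutrophil markers summed to at most 1.18 CPM, all 8 of them under 1 CPM, and 8 of 9 macrophage markers were under 1 CPM. Erythroid markers summed to 5.34, 4.29 and 2.29 CPM in replicates 1, 2 and 3. A ribosomal RNA row, Rn18s-rs5, took 5.83%, 2.37% and 0.992% of the counts in the same order. The biological coefficient of variation over 13676 genes was 0.153.

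The subunit genes were among the more abundant transcripts. A mean of 10 CPM or more was reached by 74 of 84 nuclear and 12 of 13 mitochondrial rows, compared with 9204 of the 23131 rows with any count. Of the 11170 other protein-coding genes with enough counts to be tested below, 7966 reached it, beside 74 of the 77 such nuclear rows. Nuclear rows held 0.715%, 0.657% and 0.605% of all counts in replicates 1, 2 and 3, a mean of 0.659% ± 0.0549 (SD, n = 3). Mitochondrial rows held 1.77%, 2.12% and 1.97%, a mean of 1.95% ± 0.177. The order of the libraries was therefore not the same for both genomes: replicate 1 was highest for the nuclear and lowest for the mitochondrial rows. Within each library the mitochondrial rows outnumbered the nuclear rows by log2 ratios of 1.31, 1.69 and 1.71. The mean was 1.57 ± 0.23, or 2.96-fold. With 3 libraries the two-sided exact sign-flip test cannot go below 0.25, and it gave p = 0.25 here.

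Transcript length matters for such sums, so levels of different genes are compared as CPM per kb of transcript. The median was 55.6 CPM per kb over the nuclear rows and 1372 over the mitochondrial rows, compared with 9.96 over the 15392 rows tested for differences between libraries. Over the other protein-coding genes tested with transcripts of up to 1 kb it was 19.6. The plot of levels by complex shows the gap between the genomes in every complex that has subunits of both.

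**Figure D1:**
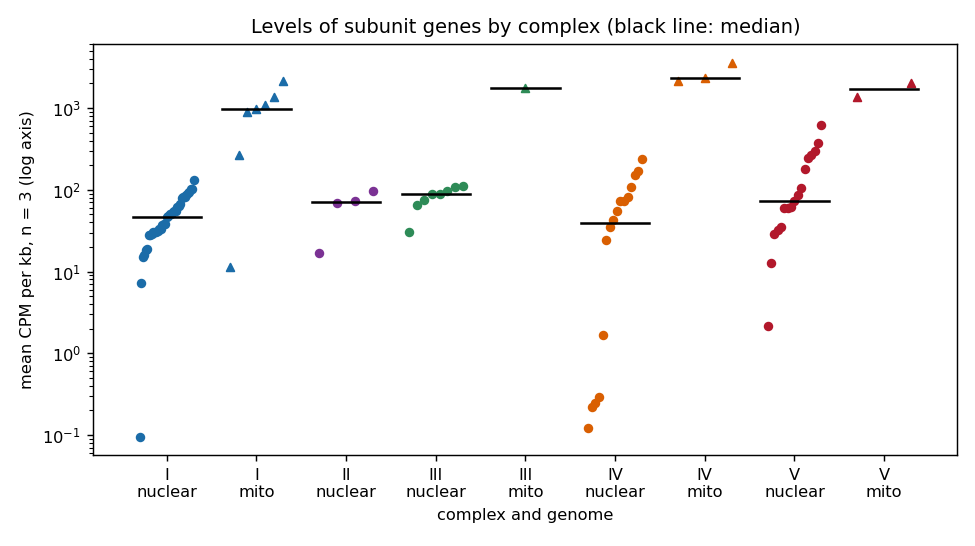
Mean level of each subunit gene over 3 libraries in CPM per kb (log axis), by complex and genome, with circles for nuclear and triangles for mitochondrial genes, a black line at each median, and the 2 genes without any count not drawn. In complexes I, III, IV and V the mitochondrial median lies far above the nuclear one, with ND6 the one mitochondrial gene below the nuclear median of its complex.

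Of the mitochondrial genes, COX1, which carries the catalytic centre of complex IV, had the highest level. It was at 5835, 5757 and 5054 CPM in replicates 1, 2 and 3, a mean of 5549 ± 430 CPM (SD, n = 3), or 3591 CPM per kb. The other catalytic subunit, COX2, which takes electrons from cytochrome c, was at 1388, 1609 and 1838 CPM. COX3, the third core subunit, was at 1475, 1775 and 1841 CPM. For COX2 and COX3 replicate 1 was lowest and replicate 3 highest, the reverse of COX1. Per kb, COX2 at 2356 ± 329, COX3 at 2165 ± 249, ND1 at 2140 ± 187 and ATP6 at 2003 ± 407 followed COX1 and overlapped in their spread.

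CYTB, the cytochrome b of complex III and its one mitochondrial subunit, was at 2125, 2254 and 1742 CPM, a mean of 2040 ± 266. Replicate 3 was the lowest, as it was for COX1.

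The 7 mitochondrial subunits of complex I form its membrane arm. ND1, next to the coenzyme Q site, was at 1967, 2254 and 1924 CPM. ND4, one of the antiporter-like subunits, was at 1631, 2199 and 1816 CPM. ND5, another of these, was at 1326, 1752 and 1760 CPM. Replicate 2 was the highest for ND1 and ND4, while replicates 2 and 3 were nearly equal for ND5. ND2, the last antiporter-like subunit, was at 975, 1155 and 919 CPM. The short genes ND4L and ND3 were at 320 ± 18.4 and 93.6 ± 12.98 CPM (n = 3). Per kb ND4L, at 1076, lay between ND4 at 1366 and ND2 at 979, and ND3 stood lower at 269.

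ND6 stood apart from the other 12 genes. It is the one protein gene read from the opposite strand of the mitochondrial genome, at chrM:13552-14070 on the minus strand. It had 76, 115 and 69 counts in replicates 1, 2 and 3, which is 5.97, 7.58 and 4.27 CPM. Its mean of 5.94 ± 1.66 CPM, or 11.4 CPM per kb, compares with 884 CPM per kb for its neighbour ND5. No source used here says whether the counting used the strand, so reads from opposite strands of this region may not have been told apart.

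ATP6 and ATP8 encode membrane subunits of ATP synthase and share a stretch of sequence. The last 43 bases of ATP8, 21.1% of its length, are the first bases of ATP6, at chrM:7927-7969 on the plus strand (GRCm38). The sequence is shown because reads inside it belong to both rows, with the start codon of ATP6 and the stop codon of ATP8 in capitals.
ATP8 and ATP6 overlap: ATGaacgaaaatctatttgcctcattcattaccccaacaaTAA
ATP6 was at 1044, 1506 and 1541 CPM, a mean of 1364 ± 277, and ATP8 at 244, 293 and 303 CPM, a mean of 280 ± 31.2. Both were lowest in replicate 1. ND4L and ND4 overlap in the same way over 7 bases.

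**Figure D2:**
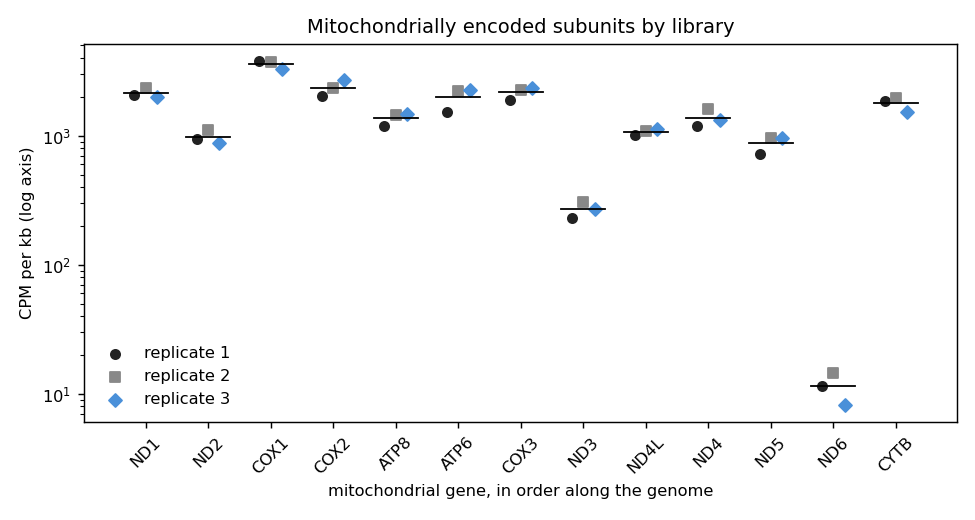
Level of the 13 mitochondrially encoded subunit genes in CPM per kb (log axis), in order along the mitochondrial genome, with 1 symbol per replicate and a black line at the mean. COX1 is highest at 3591 CPM per kb and ND6 lowest at 11.4. The replicates of several genes between them, such as COX2, COX3, ND1 and ATP6, overlap.

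The share of each gene within the mitochondrial counts also differed between libraries. COX1 made up 31.7%, 27.4% and 26.4% of them in replicates 1, 2 and 3, and CYTB 11.5%, 10.7% and 9.09%. ATP6 made up 5.68%, 7.18% and 8.04%, and ND5 7.21%, 8.35% and 9.18%. COX1 and CYTB were thus largest in replicate 1, where ATP6 and ND5 were smallest. These shares do not depend on how the libraries were scaled to each other.

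The ND4L row has a near-identical row elsewhere, the 1 case found among the mitochondrial rows. Copies in the genome without a row of their own were not searched, so other mitochondrial genes may have copies not seen here. Gm10222, annotated as a pseudogene on chromosome 1 (chr1:24612407-24612700), is 294 bases long and its whole sequence is found in ND4L. It had 3911, 5688 and 4966 counts, compared with 3830, 4856 and 5450 for ND4L. Reads of either row cannot be told apart inside this stretch, so the level of ND4L is uncertain by about as much as it measures.

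Complex V had the most abundant nuclear transcripts. Atp5b, the catalytic beta subunit, lies at chr10:128083273-128090391 and was at 1379, 1182 and 997 CPM, a mean of 1186 ± 191 (SD, n = 3) or 619 CPM per kb. Atp5a1, the alpha subunit that alternates with it in the catalytic head, was at 800, 720 and 700 CPM, a mean of 740 ± 52.9. Both were highest in replicate 1. Atp5g3, 1 of 3 genes for the same c-ring protein, was at 255, 299 and 243 CPM. The other subunits of the head and stalk were lower: Atp5d, the delta subunit, had a mean of 226 ± 25.0 CPM, Atp5c1, the gamma subunit, 122 ± 12.9, and Atp5e, the epsilon subunit, 113 ± 21.2.

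Complex II, which is also an enzyme of the citric acid cycle, had all 4 genes at a mean above 50 CPM. Sdha, whose promoter is shown above, was at 226, 204 and 205 CPM, a mean of 212 ± 12.3. Sdhb, the iron-sulfur subunit, was at 129, 104 and 97.8 CPM, a mean of 110 ± 16.3. Of the membrane anchors, Sdhd was at 85.1, 87.5 and 78.9 CPM and Sdhc at 66.7, 47.6 and 44.5 CPM. Replicate 1 was the highest for each of these genes except Sdhd.

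In complex III the core proteins Uqcrc1 and Uqcrc2 were among the steadiest subunit genes. Uqcrc1 was at 191, 181 and 184 CPM, a mean of 185 ± 4.92, and Uqcrc2 at 141, 140 and 148 CPM, a mean of 143 ± 4.60. Uqcrq, a small accessory subunit, was at 204, 124 and 76.0 CPM, a mean of 134 ± 64.5. Subunits of one complex therefore had very different spreads at a similar level. Uqcrfs1, the Rieske iron-sulfur protein, lay between them at 95.2, 91.1 and 80.5 CPM.

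In complex IV, Cox4i1, among the first nuclear subunits to join the core, was at 228, 174 and 137 CPM, a mean of 180 ± 45.4. Cox6a1 was at 120, 96.2 and 73.2 CPM, a mean of 96.4 ± 23.4, and Cox8a, the widely expressed isoform of subunit 8, at 104, 79.6 and 65.7 CPM, a mean of 83.0 ± 19.1. All were highest in replicate 1 and lowest in replicate 3. Cox5a, a subunit on the matrix side, had the opposite order with 42.3, 56.6 and 59.8 CPM.

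The leading nuclear genes of complex I were the lowest among the complexes. Ndufa10, an accessory subunit, was at 114, 107 and 117 CPM, a mean of 113 ± 4.95. Ndufv1, which binds NADH and the flavin, was at 106, 94.3 and 71.0 CPM, highest in replicate 1. Of its 37 nuclear rows, 35 had a mean of 10 CPM or more.

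The balance between the genomes differed by complex. Summed nuclear counts were below the mitochondrial ones in complex I, with a log2 ratio of -2.13 ± 0.31 (SD over 3 libraries), in complex III with -1.53 ± 0.18 and in complex IV with -3.63 ± 0.27. In complex V they were above, by 0.94 ± 0.41. The sum for complex V turned to -0.40 ± 0.38 once counts were divided by transcript length, with a two-sided exact sign-flip p of 0.5, and the ratio of medians per kb was -4.46 ± 0.44. The other complexes kept their sign per kb, with ratios of medians of -4.47 in complex I, -4.40 in complex III and -5.91 in complex IV. Every ratio other than the complex V sum per kb had p = 0.25 in the exact sign-flip test, the smallest value it allows.

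Several subunits of complex IV exist as a widely expressed isoform and 1 restricted to certain tissues, and in these cells the first kind held almost all counts. Cox4i2, the lung isoform of subunit 4, had 1, 6 and 0 counts, and Cox6b2, a testis isoform, had 2, 3 and 2. Cox7a1, a heart and muscle isoform, had 2, 2 and 0 counts, and Cox8b had 0, 2 and 0. Ndufa4l2, a hypoxia-induced relative of Ndufa4, had 1, 1 and 2. Cox7b2 and Cox8c had 0 counts in every library, where 3 counts would be 0.186 to 0.236 CPM. These 7 rows were the only subunit genes under 1 CPM in every library.

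The ratios per kb from counts summed over the libraries were 1081 for Cox4i1 to Cox4i2 (95% exact interval 525 to 2691), 360 for Cox6b1 to Cox6b2 (174 to 896) and 313 for Cox7a2 to Cox7a1 (122 to 1151). They were 1174 for Cox8a to Cox8b (325 to 9695) and 945 for Ndufa4 to Ndufa4l2 (369 to 3473). The wide intervals follow from the few counts of the rare isoform and cover counting error only. Cox6a2, the heart and muscle partner of Cox6a1, had more counts than these rare isoforms in every library, with 21, 15 and 13. The ratio of Cox6a1 to Cox6a2 per kb was 101 (76.5 to 137), with log2 ratios of 6.40, 6.81 and 6.70 in replicates 1, 2 and 3.

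**Figure D3:**
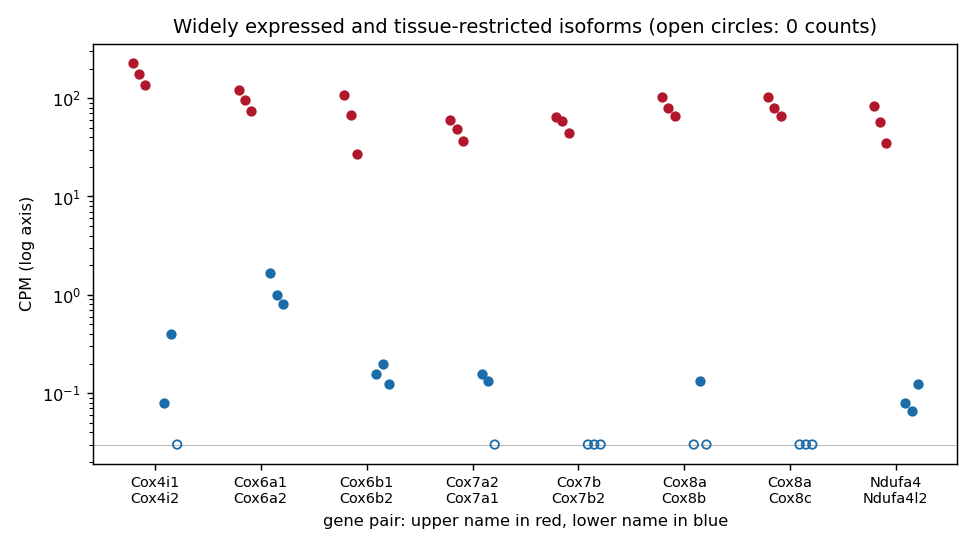
Level of 8 pairs of isoform genes in CPM (log axis), with the widely expressed gene in red, the tissue-restricted gene in blue, 3 points per gene for the replicates, and open circles on the grey line for 0 counts. Every red point lies above 20 CPM, and every blue point except 1 of Cox6a2 lies below 1 CPM.

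Cox7a2l and Cox7a2, which encode related proteins with separate roles, were not apart in level per kb. Their log2 ratio was -0.61, -0.08 and 0.66 in replicates 1, 2 and 3, a mean of -0.01 ± 0.64, with a two-sided exact sign-flip p of 1. Cox7a2l was at 64.9, 75.4 and 94.3 CPM and Cox7a2 at 60.6, 48.9 and 36.5 CPM, so the sign of the ratio depended on the library.

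The genes Atp5g1, Atp5g2 and Atp5g3 encode the same mature c-ring protein behind different import sequences. On their own rows Atp5g3 led, with a log2 ratio per kb of 3.56 ± 0.46 to Atp5g1 and 3.39 ± 0.04 to Atp5g2 (n = 3). Atp5g2 and Atp5g1 did not differ beyond the spread, at 0.17 ± 0.43 with an exact sign-flip p of 0.75. The lead over Atp5g1 depends on which rows and lengths are counted. It was 1.17 ± 0.26 once the counts of near-identical copies described below were added, and 6.53 with the longest annotated transcript of each gene. The ratio of Atp5g2 to Atp5g1 was 3.15 with the longest transcripts and -0.16 with copies added, and that of Atp5g3 to Atp5g2 was 1.33 with copies added.

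The replicates of the nuclear subunit genes differed in 1 main direction. A chi-square test of the 3 counts of each gene against the library sizes, with Benjamini-Hochberg adjustment over all 15392 genes tested, called 42.8% of all genes at an adjusted p of 0.05. Of the 77 nuclear rows that could be tested it called 62, or 80.5%. Replicate 1 was the highest in 51 of these 62, replicate 2 in 2 and replicate 3 in 9. Of the 6589 genes called over all, the same counts were 2758, 886 and 2945. These are 17.9%, 5.76% and 19.1% of all genes tested. Replicate 1 was the lowest in 8 of the 62, replicate 2 in 5 and replicate 3 in 49. The same counts were 2955, 790 and 2844 of the 6589, or 19.2%, 5.13% and 18.5% of all genes tested. A range of 1.5-fold or more was reached by 30 of the 62 called rows. It was reached by 2127 of the 6589, or 13.8% of all genes tested. Leaving out 1 replicate gave 42 to 60 calls, with 22.8% to 41.7% of all genes called. This test compares these libraries and not conditions. It sets the libraries against counting error alone, so a call says that they differ by more than counting noise and not by more than replicates usually vary. Such a test calls a given difference more readily in genes with more counts. The 84 nuclear rows had a median of 47.9 CPM, compared with 18.5 over all genes tested. Of the 16 T cell markers, at a median of 279 CPM, 15 were called. The share called among other genes of a like level was not computed.

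All 13 mitochondrial rows, at a median of 1612 CPM, were called. Replicate 1 was the highest for COX1 alone, and replicates 2 and 3 were the highest for 6 genes each. Only ND6 had a range of 1.5-fold or more. The log2 ratio of replicate 1 to 3 had a median of 0.47 over the 77 nuclear rows, with 60 higher in replicate 1. It was -0.17 over the mitochondrial rows, with 5 of 13 higher in replicate 1, and -0.02 over all genes tested. With total counts as library sizes, 45 in place of 51 of the called nuclear rows were highest in replicate 1, which is 72.6% in place of 82.3%, and COX1 was no longer highest there. That scaling moved the median over all genes by -0.10 and turned the direction of Uqcrc1, Atp5g3, Ndufs3, Ndufa5, ND1 and ND2 between replicates 1 and 3.

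By complex, log2 ratios of replicate 1 to 3 had a median of 0.68 in complex IV, 0.50 in complex I, 0.35 in complex III, 0.27 in complex II and 0.19 in complex V. Median transcript lengths over all rows of each complex were 594.5, 763, 955, 2065.5 and 742 bases in the same order. The part of length in these differences between complexes was not tested. Called rows numbered 10 of 12, 28 of 36, 6 of 8, 3 of 4 and 15 of 17 in the same order, beside 42.8% of all genes tested. Complex V held 4 of the 9 called genes that were highest in replicate 3. Atp5d was at 210, 212 and 254 CPM, Atp5f1, a subunit of the outer stalk, at 83.3, 105 and 105 CPM, and Atp5c1 at 120, 111 and 136 CPM.

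The largest differences between replicates were in small accessory subunits. Cox6b1, which faces the intermembrane space and lies at chr7:30616861-30626151, was at 107, 66.7 and 26.9 CPM, a 3.98-fold range. Ndufa3 was at 25.9, 10.6 and 6.94 CPM, a 3.73-fold range. Ndufs6, needed late in the assembly of complex I, was at 34.5, 19.3 and 11.96 CPM, and Ndufs5 at 27.5, 13.4 and 10.7 CPM. In these 4 genes replicate 1 was highest and replicate 3 lowest. Atp5l, the g subunit of ATP synthase, was the exception with 6.60, 18.9 and 21.5 CPM, lowest in replicate 1. The near-identical copies of Atp5l described below held 836% of its counts, and with them added its range was 1.13-fold.

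The steadiest genes were not called by the chi-square test. Ndufb5 was at 49.4, 49.9 and 50.6 CPM, with an adjusted p of 0.93 in the chi-square test over all genes. Atp5sl was at 30.01, 30.3 and 31.0 CPM, and Ndufa5 at 28.0, 27.3 and 26.3 CPM. Together with Uqcrc1 and Uqcrc2 these were the 5 nuclear rows of 10 CPM or more with the smallest range relative to the mean. In all, 15 of the 77 tested rows were not called, among them Ndufa10, Ndufs1, Ndufs3, Ndufv2 and Sdhd.

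The direction of the difference went with transcript length, in subunit genes and in others. Among nuclear rows with transcripts of up to 500 bases, 7 of 7 tested were called, and their log2 ratios of replicate 1 to 3 had a median of 0.55. From there up to 1000 bases, 38 of 42 were called, with a median of 0.64, and over 1000 bases 17 of 28, with a median of 0.17. The same medians over other protein-coding genes were 0.61, 0.33 and -0.08, with 57.5%, 54.5% and 43.6% called. After subtracting the median of other coding genes of the same length class from each row, the median over the nuclear rows was 0.27 in place of 0.47. Across genes, the log2 ratio and length had a Spearman rho of -0.37 over the 77 rows (Pearson r -0.28) and -0.30 over 11148 other coding genes (r -0.30). Genes within libraries are not independent replicates, so these are descriptions. The share of the Rn18s-rs5 row, given above, and the erythroid markers also differed between replicates 1 and 3, and their part in the result was not tested.

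**Figure D4:**
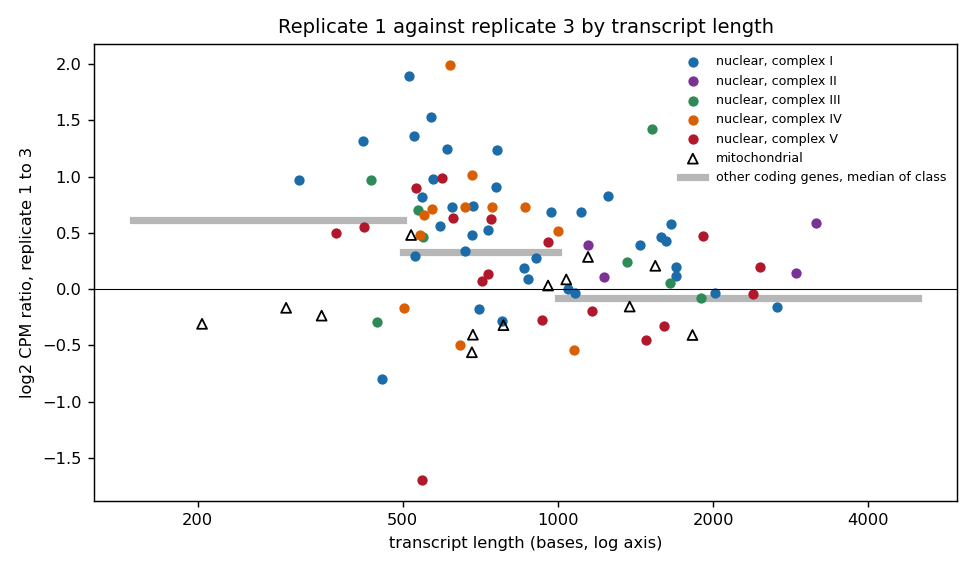
Log2 ratio of CPM in replicate 1 to replicate 3 against transcript length (bases, log axis) for tested subunit genes, coloured by complex, with open triangles for mitochondrial genes and grey bars at the medians of other coding genes in 3 length classes. Most nuclear genes between 500 and 1000 bases lie above the grey bar at 0.33, with Cox6b1 highest at 1.99 and Atp5l lowest at -1.70.

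Some subunit genes have near-identical copies whose rows held counts. Of the 84 nuclear rows, 14 had at least 1 other row with a sequence of 97% identity or more over at least 100 bases elsewhere in the genome, 21 such rows in all. In 8 of them the copies held more counts than the gene. Atp5l had 84, 286 and 347 counts on its own row, while its copy Gm10221, annotated as a pseudogene and matching it over 309 bases at 100% identity, had 1636, 2010 and 1883. With its 4 copies added, Atp5l had 1830, 2474 and 2404 counts, and its log2 ratio of replicate 1 to replicate 3 moved from -1.70 to -0.05.

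For Atp5g1 the copy Gm10039 had 1153, 1284 and 1057 counts, 419% of the counts of the gene over the libraries. Copies held 315% for Atp5g2, 302% for Cox7c, 256% for Atp5h, 227% for Ndufb4, 119% for Uqcrb and 118% for Cox5b. The levels printed for these genes are therefore uncertain. With copies added, 62 nuclear rows were still the number called: Uqcr11 was lost with an adjusted p of 0.25 in the chi-square test over all genes, and Ndufs3 was gained with 0.0016. Over the 14 genes log2 ratios of replicate 1 to 3 had a median of 0.56 on their own rows and 0.37 with copies. A further kind of uncertainty was an overlap of 100 bases or more with another gene at the same locus, found for 10 nuclear rows, such as Cox4i1 with Emc8 and Ndufb5 with Mrpl47.

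**Figure D5:**
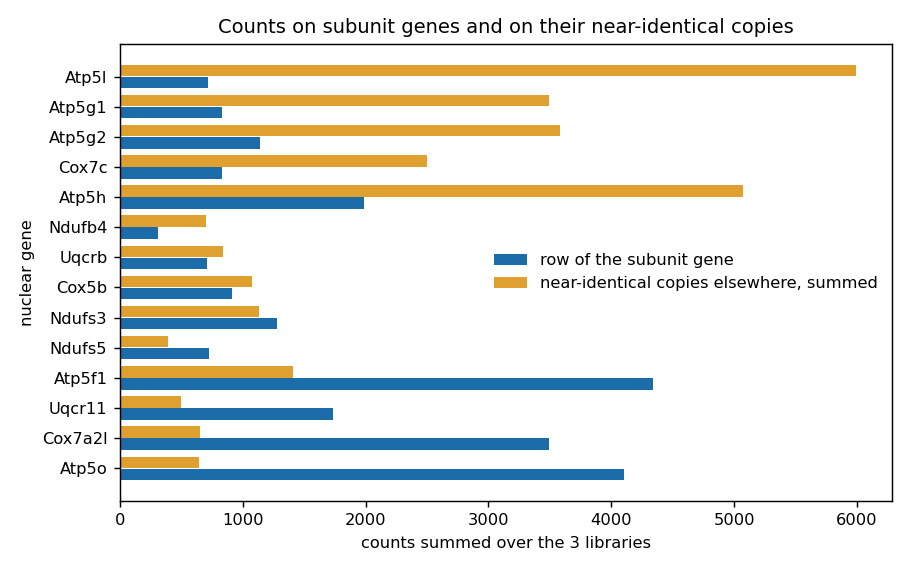
Counts summed over 3 libraries on the rows of 14 nuclear subunit genes (blue) and on their near-identical copies elsewhere (yellow), ordered by the ratio of the 2. For Atp5l, Atp5g1, Atp5g2, Cox7c, Atp5h, Ndufb4, Uqcrb and Cox5b the yellow bar is the longer.

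The genes that assemble and regulate the chain were measured in the same libraries. Of 101 such genes in 8 lists, 78 had a mean of 10 CPM or more. Of the 99 tested, 46 were called by the chi-square test, with replicate 1 highest in 23 and replicate 3 in 20, beside the 42.8% called over all genes. Without replicate 3 the count was 21, and without replicate 1 it was 31. The difference between these lists and the subunit genes was not tested.

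Among assembly factors, 7 of 16 tested were called for complex I, 1 of 4 for complex II and 3 of 6 for complex III. For complex IV 10 of 22 were called and for complex V 1 of 3, beside 42.8% of all genes tested. Ndufaf4, a complex I assembly factor, was at 55.0 ± 3.48 CPM (SD, n = 3), and Foxred1, another, at 43.5 ± 3.98. For complex II, Sdhaf2, which attaches the flavin to Sdha, was at 37.96 ± 2.18 CPM, and Sdhaf1, which helps place the iron-sulfur clusters of Sdhb, at 34.9, 22.4 and 20.4. For complex III, Uqcc2 was at 48.1, 36.7 and 30.5 CPM and Uqcc1 at 26.5 ± 3.29. For complex IV, Coa5 was at 185, 187 and 218 CPM. Fastk, counted in this list, is a mitochondrial RNA-binding protein rather than an assembly factor, and was at 119, 101 and 91.6 CPM. For complex V, Atpaf2, a chaperone of the alpha subunit, was at 42.8, 46.0 and 60.3 CPM and Tmem70, which helps form the c-ring, at 23.8 ± 2.37. In the lists for complexes I to V, log2 ratios of replicate 1 to 3 had medians of -0.02, 0.40, -0.14, 0.01 and -0.22.

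The genes that express the mitochondrial genome had 10 of 23 tested called (43.5%), near the 42.8% over all genes, with a median log2 ratio of 0.01. Lrpprc, which stabilises mitochondrial mRNAs, was at 156, 192 and 216 CPM, lowest in replicate 1. Of the 10 called genes of this list, 7 were lowest in replicate 1. Of the 13 mitochondrial genes, 8 were lowest in replicate 1, and the other 5 (COX1, CYTB, ND1, ND2 and ND6) were lowest in replicate 3. A link between these genes and the level of Lrpprc was not tested. Tfam, which packages mitochondrial DNA and starts its transcription, was at 65.2, 63.8 and 61.4 CPM, and Polg, the mitochondrial DNA polymerase, at 149 ± 3.57. Neither Tfam nor Polg was called.

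Of the nuclear regulators, 7 of 8 tested were called, beside 42.8% of all genes tested, with a median log2 ratio of -0.15. The 9 genes of this list had a median of 80.8 CPM, compared with 18.5 over all genes tested. A range of 1.5-fold or more was reached by 0 of the 7. Myc, which drives growth of activated lymphocytes, was at 649, 648 and 607 CPM, and Pprc1, a coactivator of the PGC-1 family, at 386, 399 and 433. Nrf1 was at 59.2, 58.3 and 66.0 CPM, and Gabpa, the DNA-binding part of GABP, at 95.7, 108 and 107. Ppargc1a, the PGC-1 coactivator known from muscle and brown fat, had 1, 0 and 4 counts, while its relative Ppargc1b was at 36.8 ± 0.519 CPM. Both family members Pprc1 and Ppargc1b were thus well above Ppargc1a in every library.

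Among electron carriers and the genes of coenzyme Q synthesis, 7 of 17 tested were called (41.2%), with a median log2 ratio of -0.04. This share was near the 42.8% over all genes tested. Cyc1 was at 119, 122 and 126 CPM, as steady as the core proteins of its complex. Coq2, which attaches the side chain of coenzyme Q, was at 52.8 ± 2.24 CPM. Cycs, the cytochrome c of somatic cells, was at 32.4, 26.6 and 23.0 CPM, and Cyct, its testis counterpart, had 0 counts in every library, as did the isoforms Cox7b2 and Cox8c.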

How the data were processed

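Messenger RNA of 3 libraries of 1 group was sequenced on the Ion Proton platform (RNA-Seq kit v2.0), per the labels' protocols. The authors deposited raw counts per gene symbol, in whole numbers whose totals differ between columns, on build mm10 per the submitters' processing notes. For the aligner, counting tool, annotation and use of strand, the choice is not given in the sources read. The members and gene lists were chosen with earlier results of these data known.

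Counts were scaled with TMM (edgeR 4.0.16 in R 4.3.3; factors 0.962, 1.01 and 1.03) and are printed as CPM relative to effective library sizes, mean and SD over 3 libraries. Differences between libraries were tested with a chi-square test per gene, for genes whose expected count was at least 5 in every library, with Benjamini-Hochberg adjustment over all genes tested and a threshold of 0.05. Data were simulated for this comparison with Poisson counts, which carry counting noise and no further variation between libraries. With 15386 genes tested, 36%, 58%, 84% and 100% of genes changed by 1.25-, 1.5-, 2- and 4-fold were recovered, and 2.80% of calls were false. That false share holds for counting noise alone and not for the real replicates. The changed genes were drawn from all levels tested, so recovery at the level of the subunit genes was not measured. Log2 ratios of CPM had 0.5 counts added. For ratios between genes, the exact sign-flip test was two-sided. Counting intervals are exact at 95% and, like the floor of 3 counts, cover counting error only.

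Transcript lengths came from GENCODE M21 (GRCm38), taking the transcript of best APPRIS rank, preferring those with a RefSeq entry, then the shortest. All 97 rows had a length, with older symbols matched through RefSeq synonyms. Near-identical rows were found with blastn 2.17.0 among annotated transcripts, and copies without a row of their own were not counted. Named genes were all mitochondrial genes, the 3 highest nuclear genes of each complex, the isoform pairs, the 5 steadiest and 5 most variable of 10 CPM or more, those under 1 CPM, the 2 highest of each pathway list and 7 listed regulators and carriers. Genes named beyond these were chosen after their values were seen. An item that this rule names is not reported here. Alternatives were DESeq2 1.42.0 size factors, other scalings, filters, thresholds and lengths, and each replicate left out.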

Additional observations from a re-analysis of the deposited data

How the results depend on the processing

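Of 158 alternatives run over 23 results, 144 were labelled as unchanged, by limits that differed between results. Counts of genes had to stay within 1.5-fold of the main value. Shares of counts and median ratios of replicate 1 to 3 had to move by less than the SD over libraries. Ratios between genomes, isoforms or related genes had only to keep their sign. That of Atp5g3 to Atp5g1, for example, was labelled unchanged at 1.17 and at 6.53, compared with 3.56. Asking for a range of 1.5-fold or more left 30 nuclear and 1 mitochondrial row called. Over protein-coding rows as the total, nuclear rows held 0.780% and mitochondrial rows 2.30% of counts. The complex V ratio of nuclear to mitochondrial counts was -0.40 per kb and -4.46 as medians per kb. The log2 ratio of Cox7a2l to Cox7a2 was 0.70 not divided by length, 0.051 with the union of exons and 0.25 with copies added, and -0.35 to 0.29 leaving out each replicate. That of Atp5g2 to Atp5g1 was -0.16 with copies added, and -0.026 to 0.40 leaving out each replicate, negative without replicate 3. In the pathway lists 21 to 49 genes were called leaving out each replicate, the fewest without replicate 3. The cause was not tested in any of these. The ratio of replicate 1 to replicate 3 could be recomputed without replicate 2 only. The alternatives that add copies, change the transcript length, subtract length-class medians or take medians per kb were chosen after seeing the data. No paired analysis was possible because there is 1 group. With 3 libraries the sign-flip test cannot pass 0.05, and isoforms with 0 to 3 counts are limited by depth.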
